A study of Rattus with 12 samples.

Results

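Cytosolic ribosomal protein genes encode the protein parts of the ribosome, and their mRNA levels were compared between thick ascending limbs of the rat kidney medulla from 2 strains. Members were chosen by gene symbol: every row of the authors' gene table that carries a single symbol of the form Rpl or Rps with a number and an optional letter, or Rplp0, Rplp1, Rplp2 or Rpsa. The rule found 77 rows of 42915, holding 70 symbols. Of these, 50 rows named large subunit and 27 named small subunit proteins, and 63 rows (37 large, 26 small) were among the 13253 that the authors tested. The 6 SS animals were Dahl salt-sensitive rats (SS/JrHsdMcwi), and the 6 SS.BN1 animals were consomic rats (SS-Chr 1BN/Mcwi), which carry chromosome 1 of the Brown Norway strain on the SS background. All 12 were males aged 7 weeks on a diet with 0.4% NaCl and had no other treatment, and every library was made from the tubules of 1 animal, picked by hand under a microscope. The comparison addresses what exchanging chromosome 1 changes in this tubule, in work on salt-sensitive hypertension.

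Each ribosome joins a small subunit, which holds the mRNA and reads its codons, to a large subunit, which forms the peptide bond and lets the chain out through a tunnel. Most ribosomal proteins are present once per ribosome, so cells need their products in matched amounts, and unassembled copies are degraded. In mammals their mRNAs begin with a pyrimidine tract (the 5′ TOP element) through which the kinase mTORC1 and the RNA-binding protein LARP1 set how much of each mRNA is translated. Protein output can therefore change while mRNA levels do not. The genes are also the parents of very many processed copies in mammalian genomes, among which short reads can be split.

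The tables hold 1 FPKM value (fragments per kilobase of transcript, scaled to depth) per strain and row, made by the authors, so no value per gene below carries an error between animals. FPKM is a level per length, and a log2 ratio here is SS over SS.BN1. Paired values below give SS first, then SS.BN1. Depth was 47.7 to 57.7 M reads per library in SS and 42.3 to 59.8 M in SS.BN1. The preparations carried the mark of their segment: the secreted thick limb protein uromodulin (Umod) had 10174 against 8492 FPKM by the authors' deposited table, and none of 9 tested thick limb markers had an authors' q (adjusted p) or an unadjusted p under 0.05. Proximal tubule markers differed, with 8 of 12 tested called higher in SS (3.32% of all tested rows were called in that direction and 0.0981% toward SS.BN1), a median log2 ratio of 1.26, and a summed level of 688 against 365 FPKM. Their highest level was that of Kap, with 290.3 against 120.5 FPKM. Of other cell types, 1 of 7 principal cell markers (Aqp2) and 1 of 7 endothelial markers (Tek) were called, both lower in SS, and none of 5 intercalated cell, 7 immune and 6 fibroblast markers was called. An unadjusted p under 0.05 was found for 2 of the principal cell markers, 4 of the endothelial markers (median log2 ratio -0.51) and 1 each of the intercalated cell, immune and fibroblast markers. The most abundant of those lists were Fxyd4 (85.0 against 90.8 FPKM), Slc4a1 (55.8 against 69.7), Plvap (32.0 against 51.8), Cd74 (358 against 349) and Col3a1 (20.5 against 14.6). Their part in the results below was not tested.

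Ribosomal protein mRNAs stood at nearly the same level in both strains. None of the 63 tested rows had a q under 0.05 in the authors' deposited table, where 3.42% of all tested rows did (3.32% toward SS and 0.0981% toward SS.BN1). In a set of 63 rows, a count of 0 is near that background. None of the 63 had an unadjusted p under 0.05 in the authors' deposited table either, against 7.55% of all tested rows. The lowest p of any member was 0.235, for Rps23. The median log2 ratio of the members was 0.04, a 1.03-fold difference, with an interquartile range of 0.01 to 0.07 over genes. The single ratios ran from -0.08 (Rps27l) to 0.30 (Rpl37), and 61 of the 63 lay within 0.2 of 0. The RNA came from whole tubules, so fewer cells of a type and less RNA per cell cannot be told apart.

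For scale, the smallest difference called among tested rows in the members' FPKM range was 1.58-fold, computed from the authors' deposited table. The largest difference among the 63 tested members, that of Rpl37, was 1.23-fold. The smallest call is not a measured limit of the test, and the absence of a call does not show that these mRNAs were at equal levels.

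The levels placed ribosomal protein mRNAs among the most abundant of the tubule. Of the 63 tested rows, 55 lay above 93.5 FPKM, the 95th percentile of all tested rows. The median member stood at 277 against 276 FPKM, beside 9.73 and 9.44 for all tested rows. The band from 200 to 450 FPKM held 39 of the 63 rows in each strain, while 5 lay above 500 and 9 lay below 100. The highest tested member, Rpl41, stood 78.2-fold above the lowest, Rpl37, in SS and 93.2-fold in SS.BN1. Both ends carry a limit: FPKM of the short Rpl41 mRNA depends on its effective length, and the Rpl37 row spans only 366 bases. The coefficient of variation over genes was 61.5% in SS and 62.2% in SS.BN1. All 77 rows together made 4.37% of the FPKM outside the mitochondrial genome in SS and 4.63% in SS.BN1, and the 10 most abundant rows made 31.4% and 31.6% of the members' own sum.

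**Figure D1:**
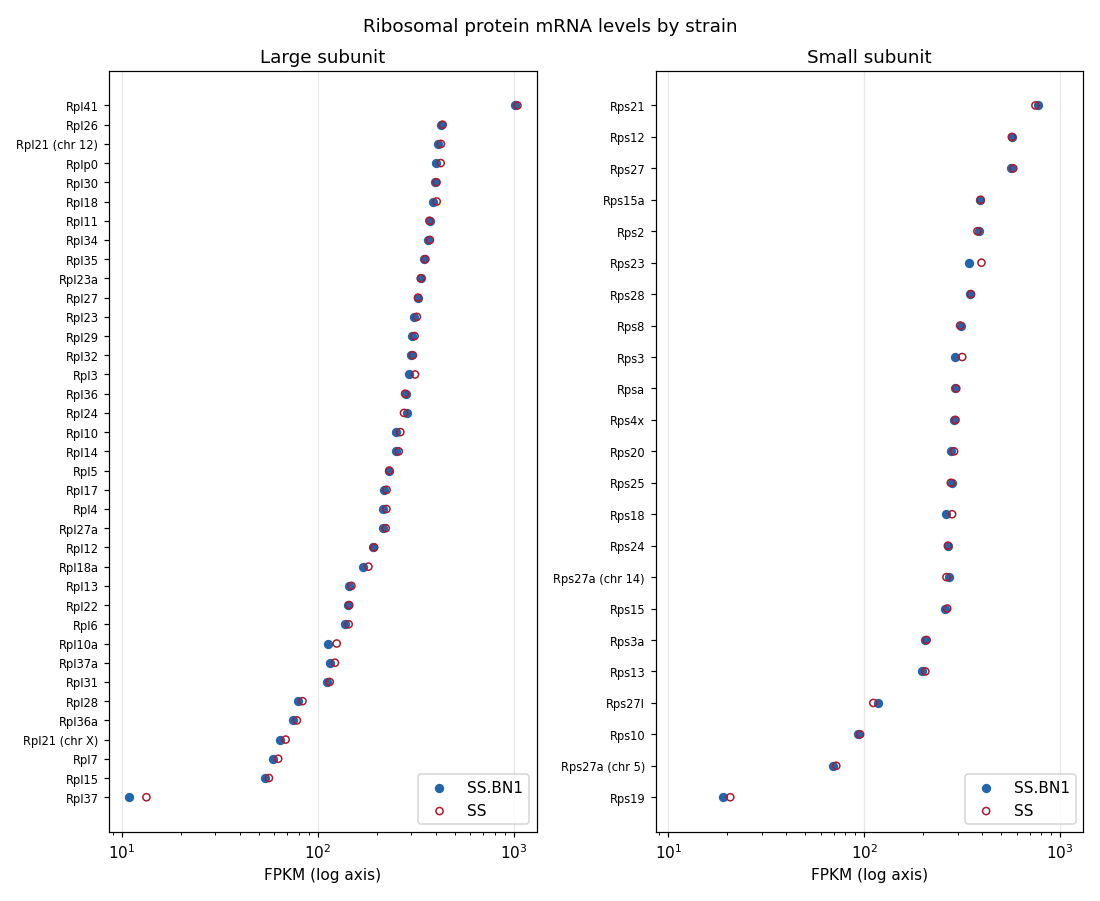
FPKM of tested ribosomal protein rows (log axis) in SS (open red) and SS.BN1 (filled blue), large subunit left and small subunit right, ordered by mean level; each point is the authors' single value per strain, with no error. Some small subunit rows are not shown. The points of a pair nearly coincide from Rpl41 at 1047 and 1012 FPKM down to Rpl37 at 13.4 and 10.9 FPKM, and 28 of the 63 rows had the same rank in both strains.

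The order of the genes was close to identical in the strains. Ranked by FPKM from the highest, 28 of 63 rows had the same rank in both strains and no row moved by more than 7 places. The one that moved by 7 was Rps23, from place 18 in SS.BN1 to place 11 in SS. Without replicate values, neighbours in this order cannot be called different.

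Among large subunit genes, Rpl41, which encodes the smallest ribosomal protein, was the most abundant, with 1047 against 1012 FPKM. FPKM of so short an mRNA depends strongly on how its effective length was set. Rpl26 stood at 435 against 426 FPKM, and the Rpl21 row of chromosome 12 at 426 against 413. Rplp0, the base of the stalk that recruits elongation factors, had 425 against 403 FPKM, and Rpl30 had 405 and 397. These 5 lay within 1.1-fold of each other apart from Rpl41, which stood more than 2-fold above the rest.

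Among proteins of the large subunit's working centre and tunnel, Rpl3, which reaches toward the site of peptide bond formation, had 314 against 292 FPKM (log2 ratio 0.11, p = 0.612 in the authors' deposited table). Rpl4 and Rpl17, which line the exit tunnel, had 225 FPKM each in SS, against 215 and 218 in SS.BN1. At the tunnel's mouth, where factors for nascent chains dock, Rpl23a had 336 FPKM in both strains and Rpl35 had 355 in SS against 348 in SS.BN1. None of these pairs of values differed by more than 1.08-fold.

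Rpl5 and Rpl11 bind the 5S rRNA and, when left unassembled, inhibit the p53 ubiquitin ligase Mdm2. Rpl5 stood at 232 FPKM in both strains (p = 0.993 in the authors' deposited table). Rpl11 had 372 against 374 FPKM (p = 0.971 in the authors' deposited table). Both members of this particle were thus among the closest pairs of values, with log2 ratios of 0.0016 and -0.0068. Rpl10, one of the last proteins added to the large subunit, had 264 against 252 FPKM. Rpl24, which forms a bridge between the subunits, had 276 against 285 FPKM and was the lowest large subunit gene by ratio (log2 -0.04).

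The least abundant tested large subunit rows were higher in SS by value, without a call. Rpl37 had 13.4 against 10.9 FPKM (log2 ratio 0.30, p = 0.487 in the authors' deposited table), the widest pair of the tested members. Its row spans 366 bases of chromosome 9. Rpl15 had 56.5 against 53.8 FPKM, and Rpl7 had 63.0 and 59.5. The Rpl21 row of the X chromosome stood at 68.7 against 64.5 FPKM and Rpl36a, also on the X chromosome, at 78.4 against 75.2. Rpl10a, a part of the L1 stalk past which used tRNAs leave, had 125 against 113 FPKM (log2 ratio 0.15, p = 0.498 in the authors' deposited table). Of the 37 large subunit rows, 34 (91.9%) had the higher value in SS. So had 57.0% of all tested rows in the members' FPKM range and 77.1% of those with a mean of at least 100 FPKM. The direction depends on the scaling, as given below.

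Small subunit genes were led by Rps21, with 747 against 770 FPKM (log2 ratio -0.04). Rps12, a protein of the head of the subunit, had 567 against 571 FPKM. Rps27, a zinc finger protein, had 576 against 560 FPKM, and Rps15a had 392 and 389. Rps21 and Rps12 were lower in SS by value and Rps27 and Rps15a were higher, each by less than 1.04-fold.

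Of proteins that hold the mRNA and the codon, Rps23 and Rps3 had wide pairs for a member, and Rps2, Rps25 and Rps28 narrow ones. Rps23, which reaches into the decoding centre, had 397 against 341 FPKM (log2 ratio 0.22, p = 0.235 in the authors' deposited table). Rps3, at the channel through which mRNA enters, had 316 against 289 FPKM (log2 ratio 0.13, p = 0.488 in the authors' deposited table). Rps2, its neighbour at that channel, had 378 against 383 FPKM. Without replicate values, the ratios of Rps3 and Rps2 cannot be called different. At the exit side, Rps28 had 350 against 345 FPKM. Rps25, which certain viral and cellular mRNAs need to start translation without a cap, had 277 against 279 FPKM.

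The lowest tested small subunit row was Rps19, the gene most often mutated in human Diamond-Blackfan anaemia, at 20.7 against 19.0 FPKM (log2 ratio 0.13, p = 0.685 in the authors' deposited table). Of other genes of that disease, Rps24 had 268 FPKM in both strains. Rps10, which cells ubiquitinate when ribosomes collide, had 95.3 in SS and 92.7 in SS.BN1. Rps29 and Rpl35a had untested rows alone, Rps29 at 0.424 against 0.652 FPKM and Rpl35a listed at 0 in both strains. These untested values are not read here as the level of the mRNA. Rps13 had 205 against 197 FPKM, and Rps3a had 208 and 205. A level as low as that of Rps19 or Rpl37 is 10-fold or more below the median member. Whether reads went to other copies of these genes was not tested.

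Set side by side, the tested rows of the subunits had close median levels and ratios. The median tested small subunit gene stood at 290 against 283 FPKM, and the median tested large subunit gene at 259 and 252, a small over large quotient of 1.12 in SS and 1.13 in SS.BN1. With the 14 untested rows, 13 of them of the large subunit, the medians were 288 against 279 FPKM for the small and 165 against 158 FPKM for the large subunit, further apart. The coefficient of variation over genes was 68.5% for the large subunit in both strains, and 52.6% in SS and 54.2% in SS.BN1 for the small. The large subunit value includes Rpl41, at 1047 against 1012 FPKM, and was not computed without it. No greater spread is therefore claimed for large subunit genes. The median log2 ratio was 0.05 for the large and 0.02 for the small subunit, a difference of -0.02, small minus large. By value 34 of 37 large (91.9%) and 17 of 26 small subunit rows (65.4%) were higher in SS. The share was 57.0% for all tested rows in the members' FPKM range and 77.1% for those with a mean of at least 100 FPKM. Genes are not replicates, so no test was made between the subunits.

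The direction of the small common offset depended on the scaling. Relative to the FPKM of all non-mitochondrial rows, which were higher in SS, all ratios fall by 0.11 on the log2 scale. The members' median is then -0.07 and 58 of 63 rows are lower in SS, while the median of all tested rows is -0.11. Relative to the median of all tested rows, the members stood at 0.04 under either scaling, since a shift common to all rows cancels. After quantile normalization they stood at -0.02 relative to that median. No direction is therefore given to the ribosomal protein genes as a set.

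**Figure D2:**
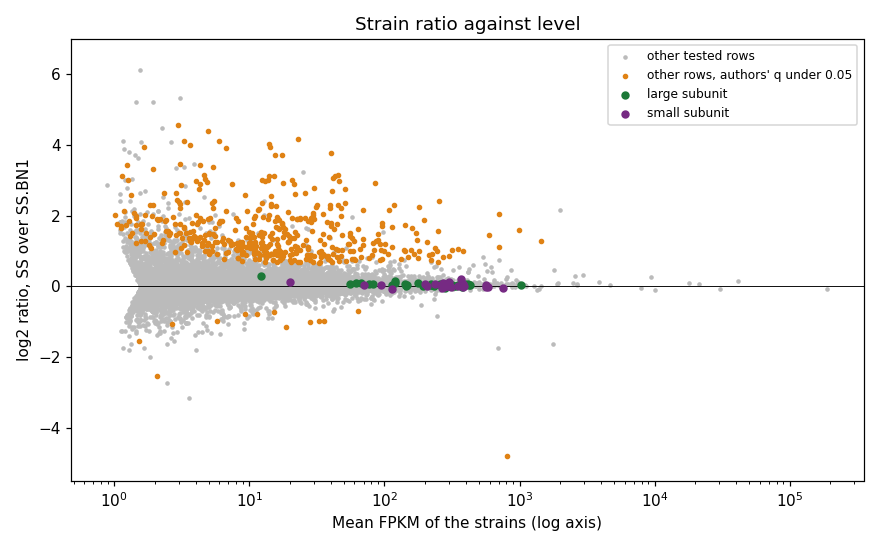
Log2 ratio of SS over SS.BN1 against mean FPKM (log axis) for tested rows with a value above 0 in both strains: grey for other rows, orange for other rows with an authors' q under 0.05, green and purple for large and small subunit rows. The 63 members lie between -0.08 and 0.30, inside the grey band, and none is orange.

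The members' ratios lay closer together than those of other mRNAs as abundant. Of the 54 members with a mean of at least 100 FPKM, 42 (77.8%) had the higher value in SS, as had 77.1% of all 607 tested rows at that level, so the share is near the background. Their median log2 ratio was 0.04, against 0.06 for all rows at that level. Their interquartile range of log2 ratios was 0.06 wide, against 0.14 for all rows at that level. By the authors' q, 6.59% of those 607 rows were called, and 10.7% had an unadjusted p under 0.05. In the members' whole range, 12.1 to 1029 FPKM, 88.9% of members and 56.9% of the 5639 tested rows had a log2 ratio within 0.1 of 0, and 4.43% of those rows were called (7.98% at an unadjusted p under 0.05).

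**Figure D3:**
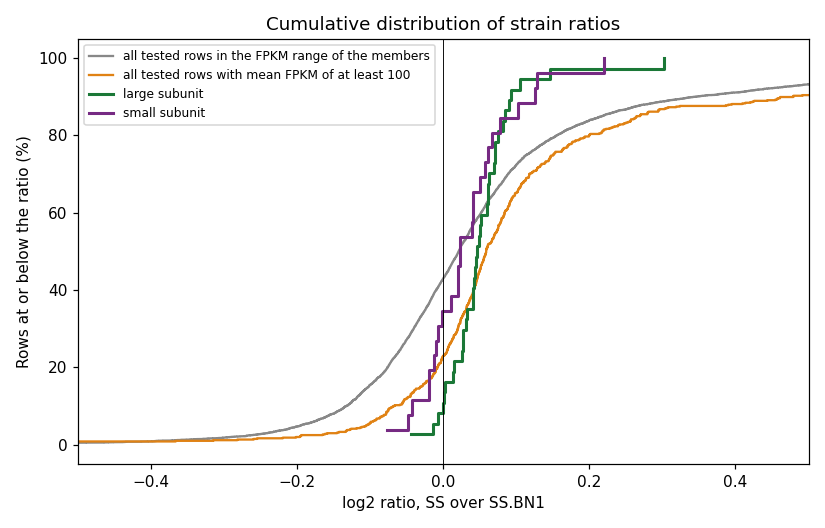
Share of rows at or below each log2 ratio (SS over SS.BN1) for large subunit (green, 37 rows) and small subunit (purple, 26 rows) genes, for all tested rows in the members' FPKM range (grey, 5639) and for all at 100 FPKM or more (orange, 607); ratios beyond 0.5 on either side are not drawn. The members' curves are steeper than both backgrounds, with 88.9% of members within 0.1 of 0 against 56.9% of the grey rows.

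Chromosome 1, the chromosome that comes from the Brown Norway strain in SS.BN1, held 10 of the 63 tested rows, and the others lay on 17 further chromosomes. They included Rpl18, Rpl28, Rps3, Rps12, Rps15a and Rps19. Their median log2 ratio was 0.06 (range -0.02 to 0.13) and that of the other 53 was 0.04 (range -0.08 to 0.30). With 2 rows of this chromosome that join a member with other names added, the difference between the medians was 0.01 in place of 0.02. By value the widest pairs toward SS here were Rps3 and Rps19, given above, and Rps12 and Rps15a had ratios close to 0. No chromosome 1 member passed the authors' test, where 3.42% of all tested rows did. Of the 790 tested rows of this chromosome in the members' FPKM range, 40 were called, and their median log2 ratio was 0.02. Among 10 rows, a count of 0 is near the background.

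Most members were compact genes. The median deposited span of a tested member was 3512 bases, against 26882 for tested rows in the same FPKM range. Spans under 1000 bases, short for a gene with introns, belonged to 5 tested members: Rpl36 (576), Rpl21 on the X chromosome (554), Rpl37 (366), Rps13 (523) and Rps20 (828). The 7 tested members with spans over 20000 bases, among them Rpl27a, Rpl31, the Rps27a row of chromosome 5 and Rpl18, each shared that span with at least 1 other tested row. In all, 12 tested members did so, and how their reads were assigned is uncertain. Without those 12 the median log2 ratio stayed at 0.04.

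Isoforms gave no call. The 63 tested rows held 107 isoforms, of which 90 were tested and none had a q under 0.05 in the authors' deposited table. Of all tested isoforms 1.05% did, so among 90 a count of 0 is near the background. None of the 90 had an unadjusted p under 0.05 either, against 3.85% of all tested isoforms. Of the rows, 37 had a single isoform, and in 15 of the other 26 the leading isoform held over 90% of the level in both strains. The lowest p, 0.148 in the authors' deposited table, was that of the annotated Rps27a isoform on chromosome 5.

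A few genes split their level between isoforms. Rps24, whose mRNA is known for alternative short exons at its end, had its leading annotated isoform at 137 FPKM in both strains, 51.4% of the row in SS and 51.2% in SS.BN1. An unnamed isoform of Rps24 held 30.9% in SS and 24.9% in SS.BN1 (82.6 against 66.6 FPKM, p = 0.46 in the authors' deposited table). Rps4x, on the X chromosome, divided between 2 isoforms with 52.6% and 47.2% in SS and 51.9% and 47.8% in SS.BN1. The widest shift was in Rpl15, whose unnamed isoform held 26.7% in SS and 16.0% in SS.BN1 (15.1 against 8.60 FPKM, p = 0.324 in the authors' deposited table). Only Rpl14, Rpl15, Rpl24 and Rps24 had an isoform whose share differed by more than 5 percentage points, and none of those isoforms was called.

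Some rows owe their level to transcripts that carry no gene name. In 6 tested rows unnamed isoforms held over 20% of the level in SS. The Rps27a row of chromosome 5 had 72.0 against 69.6 FPKM, of which the unnamed isoform made 72.0 and 67.1, while the annotated isoform was at or near 0 in SS and at 2.46 FPKM in SS.BN1. The other Rps27a row, on chromosome 14, consisted of 1 annotated isoform at 263 against 272 FPKM. In the Rpl31 row an unnamed isoform held 78.5% in SS and 80.3% in SS.BN1. For Rpl31 the level of the gene itself therefore rests on how these transcripts are counted. For Rps27a, which is made as a fusion with ubiquitin, this holds for the chromosome 5 row and not for the chromosome 14 row.

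Paralogs that replace a standard protein in particular tissues stood low or at the level of a minor member. Rps27l, a paralog of Rps27 that p53 induces in human cells, had 111 against 117 FPKM (log2 ratio -0.08, the lowest of the tested members; p = 0.821 in the authors' deposited table), against 576 and 560 for Rps27. Rpl3l, the striated muscle paralog of Rpl3, was listed at 0.0619 against 0 FPKM and was not tested. Rpl10l, a testis paralog of Rpl10, had 0.660 against 0.931 FPKM, and Rpl39l, also known from testis, 0.255 and 0.0752. These 3 rows were left untested by the authors.

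Further paralogs fall outside the symbol rule. Rpl22l1, which is known to rise when Rpl22 is lost, had 113 against 109 FPKM, beside 145 and 144 for Rpl22 itself. Rpl36al had 130 against 126 FPKM, more than the 78.4 and 75.2 of Rpl36a, its near-identical relative, so the split between those is uncertain. Rpl7l1 had 32.4 against 30.2 FPKM, and Rps4y2 had 8.53 and 8.13. None of the 5 tested paralogs, Rps27l included, had an unadjusted p under 0.05 in the authors' deposited table.

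The symbol rule does not hold the whole ribosome. A list of 77 standard ribosomal proteins with a symbol of the Rpl or Rps form had a tested row of its own for 60 (36 large, 24 small), a joined row for 6, an untested row alone for 6, and 5 (Rplp1, Rps7, Rps9, Rps14 and Rps26) were not analysed here under those symbols. A row named Rps9l1, which RefSeq gives as a synonym of Rps9, had 46.6 against 43.4 FPKM. The 6 with an untested row alone were Rpl7a, Rpl8, Rpl9, Rpl35a and Rpl38, each listed at 0 in both strains, and Rps29 at 0.424 against 0.652 FPKM. Of the 14 untested rows, 8 were listed at 0 in both strains and none exceeded 0.931 FPKM. Every cell needs these proteins, so a listed 0 is not read here as absence of the mRNA.

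Rows that join a ribosomal protein with other names held a further 6 genes. Rpl39, a small protein of the exit tunnel, shared its row with a small RNA family and stood at 688 against 607 FPKM (log2 ratio 0.18, p = 0.669 in the authors' deposited table). Rps16 had 446 against 432 FPKM, Rpl19 had 424 and 402, and Rpl13a had 341 and 335. Each of these 4 lay within the FPKM range of the tested single-symbol members, Rpl39 above all of them but Rpl41 and Rps21. Rps6, the substrate of S6 kinase, was different: its joined row had 11.1 against 10.4 FPKM, all of it from an isoform under another name, with the annotated Rps6 isoform listed at 0. The row of Rplp2, a stalk protein, was listed at 0 in both strains.

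Rack1, a scaffold on the head of the small subunit, had 269 against 264 FPKM (log2 ratio 0.03, p = 0.893 in the authors' deposited table). Fau, which yields a ubiquitin-like protein and a small subunit protein, was listed at 0 in both strains. Rack1 thus lay within the band of most members.

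Genes that build and transcribe for the ribosome held no calls, beside 3.42% of all tested rows (7.55% at an unadjusted p under 0.05), so in lists of this size a count of 0 is near the background. Ribosome biogenesis factors had none among 56 tested (2 with an unadjusted p under 0.05), with a median log2 ratio of 0.01. Their most abundant members were the nucleolar proteins Npm1, at 126 against 115 FPKM, and Ncl, at 69.5 and 64.5. Among the polymerase genes the most abundant were Maf1, a repressor of polymerase III, at 42.9 against 46.8 FPKM, and the subunit gene Polr1d, at 37.5 against 36.5 FPKM. Subunits and regulators of RNA polymerases I and III, which transcribe the ribosomal RNAs, had no call among 24 tested (none with an unadjusted p under 0.05) and a median of -0.06. The interquartile range of the log2 ratios was 0.17 wide for biogenesis factors and 0.15 for the polymerases, at median levels of 8.19 and 6.75 FPKM in SS, and 0.06 for the ribosomal proteins, at 277 FPKM.

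**Figure D4:**
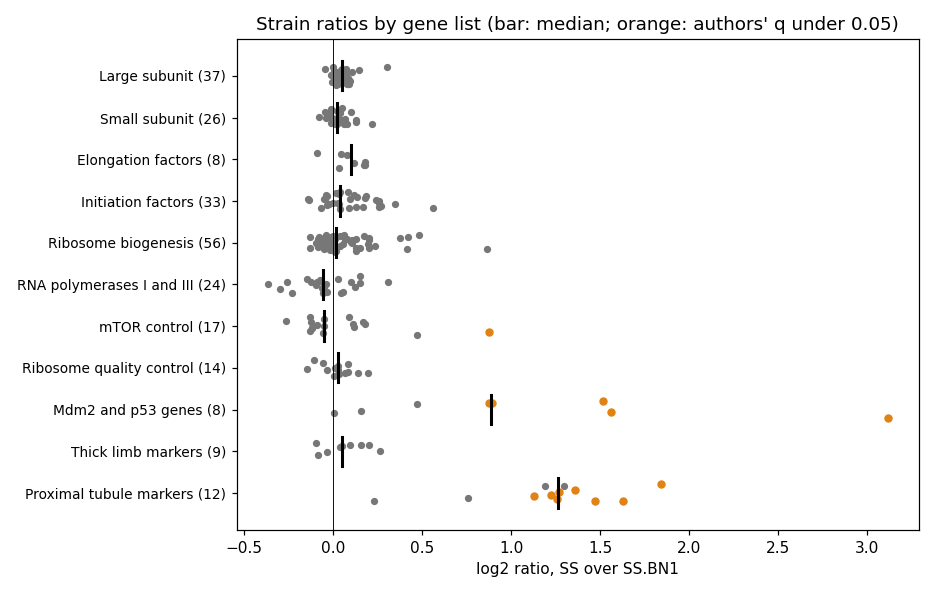
Log2 ratio of SS over SS.BN1 (horizontal axis) for each tested gene of the lists named on the left, with the number of genes in brackets; points are scattered vertically for visibility, black bars are medians, and orange marks an authors' q under 0.05. The ribosomal protein rows gather at 0.05 (large) and 0.02 (small), and called genes appear among the Mdm2 and p53 genes, the mTOR list and the proximal tubule markers.

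Translation factors and quality control genes had no call either, again near the background of 3.42% called and 7.55% at an unadjusted p under 0.05. Elongation factors and their partners had none among 8 tested (none with an unadjusted p under 0.05) and a median log2 ratio of 0.10, with Eef1a1, which brings tRNAs to the ribosome, at 1021 against 941 FPKM. Tpt1, whose mRNA also starts with a 5′ TOP element, had 1004 against 889 FPKM. Initiation factors had no call among 33 tested and 1 unadjusted p under 0.05, that of the start codon factor Eif1, at 277 against 188 FPKM (log2 ratio 0.56, q = 0.132 in the authors' deposited table). Eif4g2 had 272 against 228 FPKM. Ribosome quality control genes had no call among 14 tested (none with an unadjusted p under 0.05), led by Edf1, a sensor of collided ribosomes, at 110 against 108 FPKM. Pelo, which frees stalled ribosomes, shares its row with Itga1, at 44.6 against 38.9 FPKM.

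Calls appeared in the signalling lists. Of 17 tested genes of mTOR control of translation, 1 was called, Sesn2, an inhibitor of mTORC1 that stress induces, at 21.4 against 11.7 FPKM (q = 0.0233 in the authors' deposited table), beside 3.42% of all tested rows. Of 8 tested genes of the Mdm2 and p53 list, which shares Sesn2 and Ddit4 with the first, 5 were called, all higher in SS. They included Mdm2, the ligase that free Rpl5 and Rpl11 inhibit, at 17.6 against 9.46 FPKM (q = 0.0233 in the authors' deposited table). Cdkn1a, which arrests the cell cycle, had 27.5 against 3.18 FPKM (q = 0.00266 in the authors' deposited table). Btg2, an antiproliferative gene, had 370 against 125 FPKM, and Gadd45a, a DNA damage response gene, had 253 against 88.4 (both q = 0.00266 in the authors' deposited table). Rps27l, the p53-induced paralog among the ribosomal protein genes, is not part of that list. It had 111 against 117 FPKM, without a call (p = 0.821 in the authors' deposited table). Any link between Rps27l and the calls above was not tested.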

How the data were processed

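Total RNA of tubules from individual animals was made into stranded libraries with an Illumina TruSeq Stranded Total RNA kit and sequenced from both ends, per the labels' protocols. Named without roles in the submitters' processing notes are Cufflinks 2.2.1, TopHat2 2.1.1, StringTie, FastQC, cutadapt and, as build, rn5. Gene and isoform FPKM, 1 value per strain, were deposited by the authors with p-values and q-values per row, in columns of the Cuffdiff form per the file headers. The sources used here do not say how 1 value per strain came from its 6 libraries, or whether the p-values take differences between animals into account. Read counts per library are those of the deposited summary, summed over both mates. These samples are separate animals.

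Members, gene lists and figures were chosen with earlier results of these data known. Log2 ratios were computed from FPKM without a pseudocount, and q under 0.05 was a call. For a list gene, the tested row with its symbol and the highest mean FPKM was used, single-name rows first. Sets are described by counts and medians, with no test over genes. Named rows follow a written rule: the 5 most and 5 least abundant of each subunit, the 5 largest ratios in each direction, 3 in each direction on chromosome 1, paralogs, fusion proteins, and up to 4 called or 2 abundant genes of each other list. Members named for their place in the ribosome, and those named for span, isoforms or listed zeros, were chosen after their values were seen. Some genes that this rule picks are not reported here by name. The coordinates' build is not settled, so spans and chromosomes are as deposited. The functions were tested on simulated data. Symbols were checked in a RefSeq table of GRCr8. Python 3.11.15, NumPy 2.4.6, pandas 2.3.3 and matplotlib 3.10.9 were used.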

Additional observations from a re-analysis of the deposited data

How the results depend on the processing

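The count of called members was 0 in each of the 6 alternatives run: at least 5 FPKM, standard genes with 1 row each, joined rows added, q under 0.01, unadjusted p under 0.05, and isoforms. The FPKM floor, the standard genes and q under 0.01 only narrow the set or the threshold, so they could not add a call. Joined rows, unadjusted p and isoforms could have done so. The members' median log2 ratio of 0.04 changed sign in the scaling alternatives named in the report, to -0.0905 after quantile normalization and -0.0733 relative to non-mitochondrial FPKM, and otherwise lay between 0.0359 and 0.0427. The median of the other pathway lists, 0.0343, became -0.0803 relative to non-mitochondrial FPKM and -0.0498 after quantile normalization. With untested rows kept, the median large subunit level was 165 FPKM in SS and 158 in SS.BN1. The difference of the subunits stayed between -0.0231 and -0.0166 in all 11 alternatives run on it. Centring on the median of all tested rows and scaling to non-mitochondrial FPKM shift all ratios alike, so they could not change it. The floor of 5 FPKM removed no tested member and could not change it either. Of 73 values of single genes and lists, scaling to non-mitochondrial FPKM moved 73, each downward, quantile normalization 44 and a pseudocount of 1 moved 2 (proximal tubule markers to 1.04 and Cdkn1a to 2.77). A move of less than 0.1 on the log2 scale, or of less than 1.5-fold in level, was counted as no change. Leaving out members that share their span and members under 100 FPKM, and all alternatives for the chromosome 1 comparison, were added after seeing the data. No paired analysis was possible because the expression columns hold 1 value per strain, which also kept any library from being left out. Depth per gene is unknown, since the tables give no counts.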
